A study of Homo sapiens with 5 samples.

Results

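The sulfotransferases of heparan sulfate and of chondroitin sulfate and the sialyltransferases were described in 2 cultured human lines of melanocytic origin after silencing of BPTF, the largest subunit of the chromatin remodelling complex NURF. Members were the protein-coding genes whose symbol in GENCODE 29 begins with HS2ST, HS3ST, HS6ST, NDST, CHST, ST3GAL, ST6GAL or ST8SIA, which gave 50 genes, of which 47 were among the 31029 genes listed for every library. The libraries were 2 of 501Mel shBPTF, a melanoma line grown in RPMI with 10% foetal calf serum, and 3 of Hermes 3A shBPTF, an immortalised and untransformed melanocyte line whose medium, with the same serum, also held phorbol ester (TPA), cholera toxin, stem cell factor and endothelin-1. Cells of both lines had received a lentivirus that expresses a short hairpin RNA against BPTF and had then been kept for 5 days in puromycin at 3 µg/ml. Each line stands for 1 culture model, so the line, its tumour origin and its medium cannot be told apart, and libraries with a control hairpin were not analysed here. Every difference below is therefore one between shBPTF 501Mel and shBPTF Hermes 3A cells and not an effect of silencing.

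Proteoglycans carry long sugar chains on a core protein, and sulfotransferases in the Golgi apparatus add sulfate groups to these chains, which sets the binding sites for growth factors, chemokines and matrix proteins. On heparan sulfate the NDST enzymes exchange an acetyl group for sulfate on glucosamine, after which HS2ST1, the HS6ST enzymes and the HS3ST enzymes add sulfate at further positions, whereas CHST enzymes act on chondroitin, dermatan and keratan sulfate or on glycoprotein glycans. Sialyltransferases cap glycoproteins and gangliosides with sialic acid. The ST3GAL, ST6GAL and ST6GALNAC, and ST8SIA families differ in the linkage they make. Melanoma cells are known for their gangliosides, whose synthesis from lactosylceramide starts with ST3GAL5 and continues with ST8SIA1.

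The 5 libraries held between 30073071 and 43032311 counts, and the gene with the most counts took at most 1.92% of a library. Values are given as CPM, the counts of a gene relative to the library's total with the total set to one standard size, scaled by edgeR's TMM factors of 0.94 to 1.039. Replicates correlated at r of 0.975 to 0.989 across genes, and the median absolute log2 difference was 0.34 and 0.36 between Hermes 3A replicate 1 and the other 2, against 0.19 between replicates 2 and 3. BPTF itself stood at 63.7 and 57.1 CPM in 501Mel and at 48.7, 50.9 and 54.9 CPM in Hermes 3A, which does not test the silencing in the absence of controls. All 7 melanocyte markers were detected in both lines. DCT was the only 1 called higher in 501Mel, at 1034 and 1284 CPM against 7.85 to 13.3 CPM in Hermes 3A. SOX10, PMEL, MLANA and TYR were called lower in 501Mel. Over the 7 markers the median log2 fold change of 501Mel over Hermes 3A was -0.91. Of the other lists, 6 fibroblast markers summed to 4.25 to 18.3 CPM in 501Mel and 83.4 to 193 CPM in Hermes 3A, where COL1A2 alone stood at 74.0 to 190 CPM against at most 0.104 CPM in 501Mel. The other markers of this list did not follow COL1A2: the log2 fold change of 501Mel over Hermes 3A was 2.35 for COL1A1, 2.31 for COL3A1, 0.94 for PDGFRA and 0.65 for LUM, none of them called, the median of the 5 tested was 0.94, and DCN stayed at or below 0.158 CPM in every library. KRT10 and DSG3 were the only 2 of 5 keratinocyte markers listed throughout, and the 5 leukocyte and endothelial markers listed summed to 0.470 to 0.675 CPM. Their part in the differences below was not tested.

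The start regions of 4 genes are shown first, because their genes gave the widest separation between the lines or, for HS3ST3A1 and HS3ST3B1, because both genes are neighbours that differed in the same direction. The sequences run from 250 bases before to 50 bases after the RefSeq transcription start, 5′ to 3′ on the gene's strand, on the RefSeq assembly GRCh38.p14, and capitals mark CG dinucleotides. The windows are chr10:71964145-71964444 on the plus strand for CHST3, chr17:13601880-13602179 on the minus strand for HS3ST3A1, chr17:14300831-14301130 on the plus strand for HS3ST3B1 and chr18:27185259-27185558 on the minus strand for CHST9.
CHST3: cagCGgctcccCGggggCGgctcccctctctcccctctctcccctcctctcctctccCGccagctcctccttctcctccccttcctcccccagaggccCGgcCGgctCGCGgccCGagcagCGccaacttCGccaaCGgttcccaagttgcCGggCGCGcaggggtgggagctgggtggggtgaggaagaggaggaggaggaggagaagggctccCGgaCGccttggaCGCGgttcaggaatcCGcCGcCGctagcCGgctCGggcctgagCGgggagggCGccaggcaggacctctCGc
HS3ST3A1: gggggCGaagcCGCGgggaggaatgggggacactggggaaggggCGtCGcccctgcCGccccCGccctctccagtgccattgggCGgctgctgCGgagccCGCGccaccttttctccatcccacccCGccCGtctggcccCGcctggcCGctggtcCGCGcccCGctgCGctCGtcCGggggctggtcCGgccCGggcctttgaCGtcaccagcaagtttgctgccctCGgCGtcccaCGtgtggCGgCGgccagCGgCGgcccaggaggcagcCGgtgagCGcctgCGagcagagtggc
HS3ST3B1: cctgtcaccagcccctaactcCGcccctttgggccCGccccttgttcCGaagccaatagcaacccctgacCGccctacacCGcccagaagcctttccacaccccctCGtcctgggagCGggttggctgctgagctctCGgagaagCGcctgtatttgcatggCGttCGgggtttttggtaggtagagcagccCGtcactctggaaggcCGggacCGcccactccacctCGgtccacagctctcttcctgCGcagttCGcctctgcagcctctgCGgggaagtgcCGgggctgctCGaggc
CHST9: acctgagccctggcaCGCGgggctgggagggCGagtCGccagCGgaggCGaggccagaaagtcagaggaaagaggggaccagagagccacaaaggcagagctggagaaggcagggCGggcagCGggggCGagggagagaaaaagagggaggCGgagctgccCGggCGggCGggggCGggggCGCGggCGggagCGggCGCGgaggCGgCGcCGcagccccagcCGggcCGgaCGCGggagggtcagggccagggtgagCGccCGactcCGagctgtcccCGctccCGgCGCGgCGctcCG

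All 4 windows were rich in CG, with 27 CG dinucleotides for CHST3, 34 for HS3ST3A1, 20 for HS3ST3B1 and 36 for CHST9. CHST3 also has RefSeq windows at the later starts 71964799 and 71965341, not shown, with 43 and 16 CG dinucleotides. The CHST3 window shown is the one nearest to the GENCODE start, 30 bases away. RefSeq windows were found for 41 of the 50 members (61 windows), with a median of 27 CG dinucleotides and 68.3% G and C, against 14 and 58.7% over all 35116 windows. The E-box letters CACGTG, which read the same on both strands, stood in 3 member windows (4.92%, against 7.26% of all windows), among them that of HS3ST3A1. The M-box letters CATGTG, searched on both strands and counted independently of CACGTG, stood in 4 member windows (6.56%, against 11.1% of all windows) and in none of the 4 shown. Either motif is bound by MITF, the melanocyte lineage factor, in other contexts, and a match is given here as letters in a window only.

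Of the 47 members listed throughout, 36 passed the filter on low counts of about 0.245 CPM in at least as many libraries as the smaller line has. In edgeR's quasi-likelihood test over 17975 genes, with a Benjamini-Hochberg adjusted p under 0.05, 7 members were higher in 501Mel (19.4% of those tested, against 24.2% of all genes), 14 were lower (38.9%, against 24.0% of all genes), and 15 were not called. Together 58.3% of the tested members were called, against 48.2% of all genes. The CPM of the lines did not overlap for 26 members (72.2%, against 69.6% of all genes), with 501Mel above in 8 and Hermes 3A above in 18. The median log2 fold change of 501Mel over Hermes 3A was -0.60 among the tested members and 0.02 among all genes, and the median absolute log2 fold change was 1.28 and 0.79. The 6 members CHST3, CHST9, HS3ST2, HS3ST3A1, HS3ST3B1 and ST6GALNAC1 reached the filter level in libraries of 1 line only and so had to differ, and all 6 were called. Among the other 30, 15 were called. The lists of genes counted differ between the lines, so a difference in the annotation used for counting and one between the lines cannot be told apart for a single gene.

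**Figure D1:**
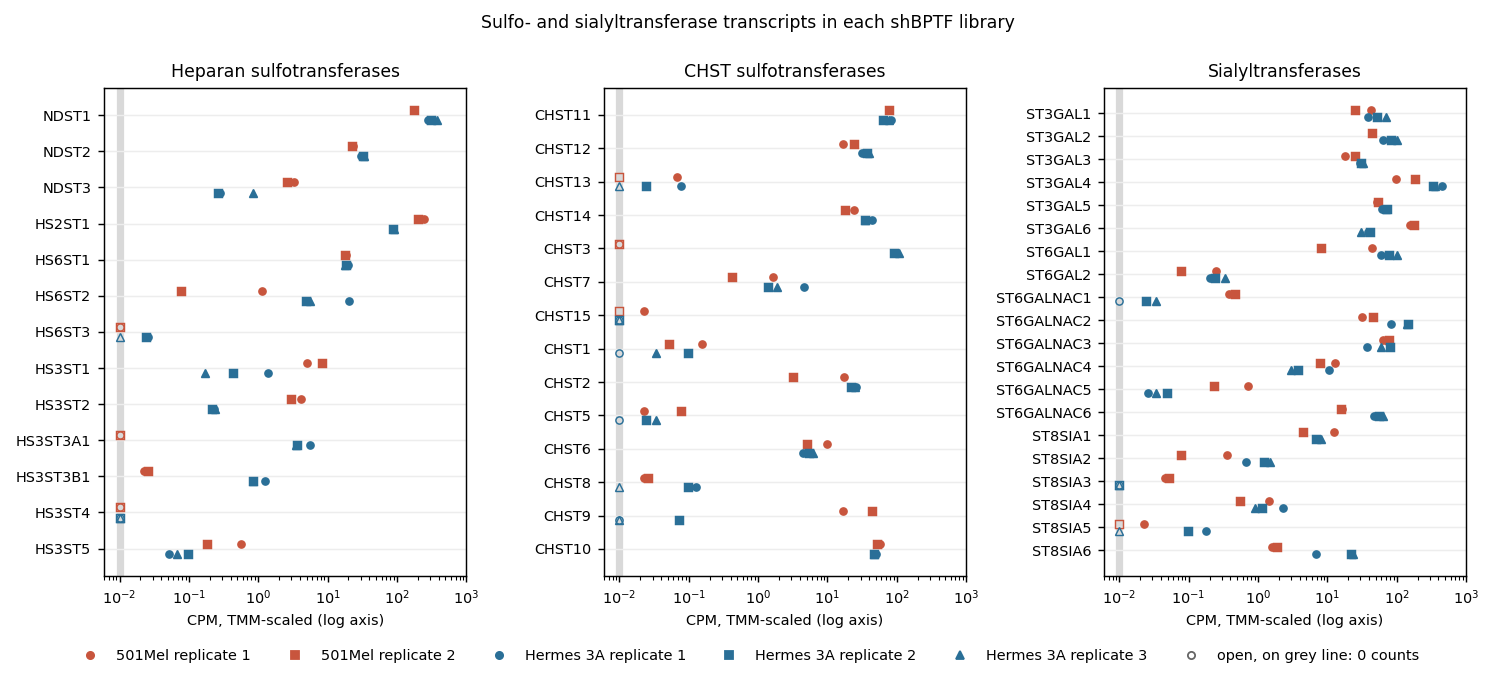
CPM of the 47 members listed in all libraries, on a log axis, with 1 point per library (501Mel in red, Hermes 3A in blue) and open points on the grey line for libraries with 0 counts. CHST3 and HS3ST3A1 have 0 counts in both 501Mel libraries, while CHST9 reaches 16.9 and 43.3 CPM there and has 0, 3 and 0 counts in Hermes 3A.

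In the heparan sulfate pathway, the class that makes the rarest modification, 3-O-sulfation, differed between the lines in all 4 of its tested members (48.2% of all genes were called). Of these, HS3ST2, HS3ST3A1 and HS3ST3B1 reached the filter level in libraries of 1 line only and so had to differ. HS3ST3A1 and HS3ST3B1, paralogs that create the 3-O-sulfated motif used by herpes simplex virus glycoprotein D, were lower in 501Mel, with at most 1 count in a 501Mel library, and HS3ST1 and HS3ST2 were higher there but still counted in every Hermes 3A library. HS3ST3A1 had 0 counts in both 501Mel libraries and 5.52, 3.62 and 3.48 CPM in Hermes 3A. With the 501Mel libraries set to a floor of 3 counts over both, it was at least 117-fold lower there (edgeR adjusted p = 0.00035). HS3ST3B1 had 1 count in each 501Mel library and 1.25, 0.844 and 0.844 CPM in Hermes 3A. Hermes 3A was above in every library, with a ratio of summed counts of 40.9 (95% exact interval 11.1 to 342, counting error only; edgeR adjusted p = 0.00098). These genes lie on chromosome 17 at chr17:13495689-13601927 and chr17:14301083-14349404 (GRCh38), 699.2 kb apart, and share much of their coding sequence, so that reads could have been split or lost between them.

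HS3ST2, a 3-O-sulfotransferase known from brain, stood at 4.19 and 3.00 CPM in 501Mel and at 0.230, 0.217 and 0.236 CPM in Hermes 3A. The lines did not overlap, and the log2 fold change was 3.96 ± 0.41 (SE, edgeR adjusted p = 0.00039). HS3ST1, which makes the antithrombin-binding motif of heparin, stood at 5.11 and 8.40 CPM in 501Mel and at 1.41, 0.434 and 0.169 CPM in Hermes 3A. Both 501Mel libraries lay above all of Hermes 3A, whose replicates were 8.34-fold apart (log2 fold change 3.31 ± 0.75, edgeR adjusted p = 0.0096; without Hermes 3A replicate 1, 4.41 and 0.0016). Per kb of exon, HS3ST2 and HS3ST1 made up 59.7% and 36.2% of the summed HS3ST level in 501Mel, and HS3ST3A1 and HS3ST3B1 81.4% and 9.34% of it in Hermes 3A. These shares depend on the gene length used. With the median transcript length in place of the union of exons, HS3ST2 and HS3ST1 held 11.0% and 88.0% in 501Mel, so that their order turned, and in Hermes 3A HS3ST3A1 held 63.8%, HS3ST1 26.8% (3.68% by union length) and HS3ST3B1 6.01%. HS3ST5 stayed under the filter at 0.563 and 0.183 CPM in 501Mel and 0.0511 to 0.0964 CPM in Hermes 3A (edgeR adjusted p = 0.037 without the filter, 0.079 by DESeq2), HS3ST4 had 0 counts in all libraries, and HS3ST6 was listed for 501Mel only, at 0 counts. A count of 0 over both 501Mel libraries allows a level of up to 0.0362 CPM.

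HS2ST1, the single 2-O-sulfotransferase of heparan sulfate, stood at 246 and 204 CPM in 501Mel and at 88.2, 88.2 and 90.3 CPM in Hermes 3A. Every 501Mel library was above every Hermes 3A library, by 2.53-fold (log2 fold change 1.34 ± 0.14, edgeR adjusted p = 0.00037). Among the N-deacetylase/N-sulfotransferases, which act first on the chain, NDST1 is the widely expressed form and supplied 77.7% of the class per kb in 501Mel and 82.9% in Hermes 3A. It stood at 179 CPM in both 501Mel libraries and at 279, 313 and 383 CPM in Hermes 3A. The lines were separate, with a log2 fold change of -0.86 ± 0.17 (edgeR adjusted p = 0.0061). NDST2, the form of mast cell heparin, stood at 23.5 and 22.8 CPM in 501Mel and at 30.8, 32.3 and 33.4 CPM in Hermes 3A. The lines were separate by a small margin (log2 fold change -0.48 ± 0.16, edgeR adjusted p = 0.040), a call lost in 7 of 12 other settings, with 82.9% of its exonic bases shared with the readthrough gene AC022400.6. NDST3, known from brain, stood at 3.33 and 2.58 CPM in 501Mel and at 0.281, 0.265 and 0.844 CPM in Hermes 3A. Its level was higher in both 501Mel libraries (log2 fold change 2.70 ± 0.58, edgeR adjusted p = 0.0076; without Hermes 3A replicate 3, 3.38 and 0.0046). NDST4 was listed for 501Mel only, with 16 and 21 counts.

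For 6-O-sulfation, HS6ST1 held 97.1% of the class per kb in 501Mel and 69.3% in Hermes 3A. By library its share in Hermes 3A was 50.6, 80.1 and 77.2%, with HS6ST2 at 49.4% in replicate 1. With the median transcript length HS6ST1 held 99.0% in 501Mel and 86.3% in Hermes 3A. The CPM of HS6ST1 lay between 17.7 and 19.5 in all 5 libraries (log2 fold change -0.04 ± 0.18, edgeR adjusted p = 0.86). HS6ST2 stood at 1.13 and 0.0783 CPM in 501Mel and at 20.4, 4.84 and 5.64 CPM in Hermes 3A. All Hermes 3A libraries were above, although the 501Mel replicates were 14.4-fold and those of Hermes 3A 4.20-fold apart (log2 fold change -4.06 ± 1.10, edgeR adjusted p = 0.020). Without 501Mel replicate 2 it was -3.21 with an adjusted p of 0.051 (edgeR), without 501Mel replicate 1 it was -6.98 (0.013), and without Hermes 3A replicate 1 it was -3.12 (0.033). HS6ST3 had at most 1 count in a library. In all, 10 of the 15 heparan sulfate members were tested, of which 4 were higher and 5 lower in 501Mel (9 of 10 called, against 48.2% of all genes, with 24.2% higher and 24.0% lower). The called members include HS3ST2, HS3ST3A1 and HS3ST3B1, which had to differ because they reached the filter level in 1 line only.

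**Figure D2:**
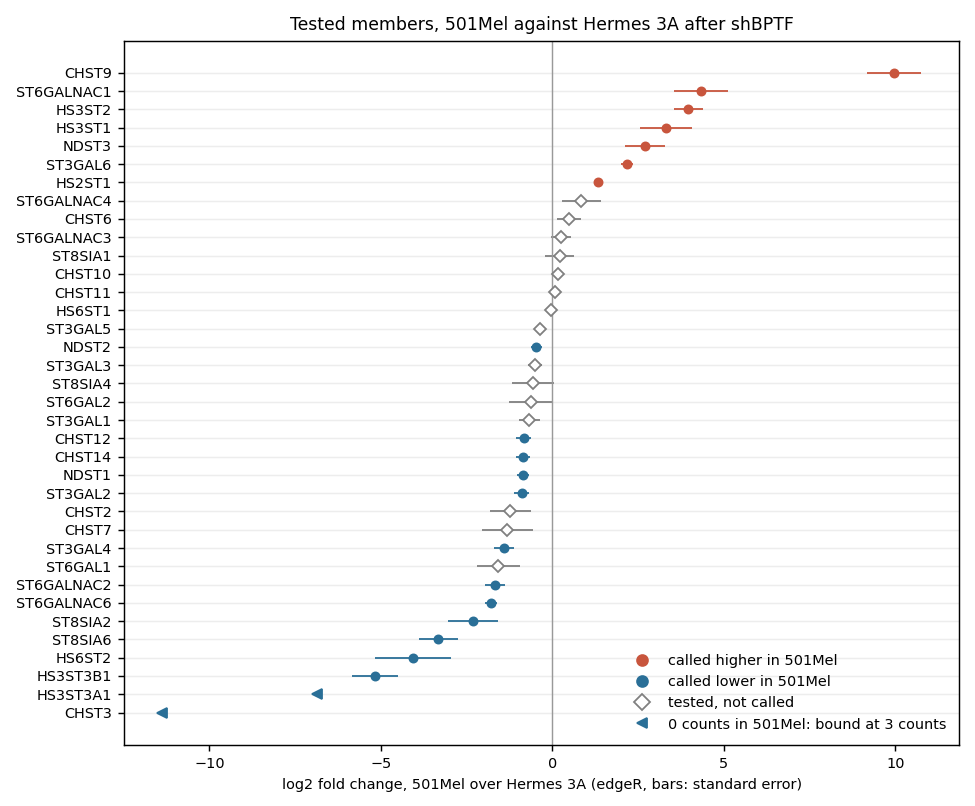
Log2 fold change of 501Mel over Hermes 3A for the 36 tested members, with standard errors from edgeR, and left-pointing triangles for the bounds of CHST3 and HS3ST3A1. The 7 members called higher in 501Mel run from HS2ST1 at 1.34 to CHST9 at 9.96, and the 14 called lower begin at NDST2 at -0.48.

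Of the 15 CHST members, 9 were tested, with 1 higher and 3 lower in 501Mel, which at 44.4% called is near the 48.2% of all genes. CHST3 (ENSG00000122863, chr10:71964365-72013564), the main chondroitin 6-O-sulfotransferase, had 0 counts in both 501Mel libraries and 3587, 3816 and 3186 counts in Hermes 3A, which is 91.7, 92.0 and 108 CPM. Hermes 3A was above throughout, and the level in 501Mel was at least 2651-fold lower with the floor of 3 counts over both libraries (edgeR adjusted p = 9.93e-06). CHST7, the other 6-O-sulfotransferase, stood at 1.64 and 0.417 CPM in 501Mel and at 4.53, 1.37 and 1.86 CPM in Hermes 3A. Its groups overlapped and it was not called (log2 fold change -1.32 ± 0.75, edgeR adjusted p = 0.18). CHST3 therefore supplied 92.5% of the 6-O class per kb in Hermes 3A and none of the counts in 501Mel.

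The enzymes of 4-O-sulfation of chondroitin and dermatan sulfate differed less. CHST11, the main chondroitin 4-O-sulfotransferase, lay between 64.0 and 83.4 CPM in all libraries, with overlapping groups (log2 fold change 0.07 ± 0.15, edgeR adjusted p = 0.75). CHST12 stood at 16.6 and 23.8 CPM in 501Mel and at 31.9, 37.1 and 39.2 CPM in Hermes 3A. Hermes 3A was above in every library (log2 fold change -0.84 ± 0.21, edgeR adjusted p = 0.015; without 501Mel replicate 1, -0.60 and 0.084). CHST14, the dermatan 4-O-sulfotransferase, stood at 24.3 and 17.6 CPM in 501Mel and at 44.1, 35.3 and 34.7 CPM in Hermes 3A. The lines were again separate (log2 fold change -0.86 ± 0.21, edgeR adjusted p = 0.014; without 501Mel replicate 2, -0.66 and 0.075). CHST13 had at most 3 counts in a library, and CHST15, which adds a second sulfate to 4-O-sulfated chondroitin, had 1 count in all 5 libraries together.

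CHST9 (ENSG00000154080, chr18:26906481-27185317), which sulfates N-acetylgalactosamine on N-glycans as those of the pituitary hormones, stood at 16.9 and 43.3 CPM in 501Mel and had 0, 3 and 0 counts in Hermes 3A. Both 501Mel libraries were above, with a ratio of summed counts of 1069 (95% exact interval 365 to 5189, counting error only; edgeR adjusted p = 0.00014). CHST8, of the same function, had at most 5 counts in any library. Of the enzymes that sulfate galactose or N-acetylglucosamine, CHST2 stood at 17.4 and 3.24 CPM in 501Mel and at 26.1, 22.2 and 24.7 CPM in Hermes 3A. Hermes 3A was above in every library but the gap between the 501Mel replicates was wide, and the gene was not called (log2 fold change -1.23 ± 0.60, edgeR adjusted p = 0.13); without 501Mel replicate 1 it was -2.91 with an adjusted p of 0.0011 (edgeR), and without the filter on low counts the adjusted p was 0.036. CHST6, the corneal keratan sulfate enzyme, lay between 4.42 and 9.77 CPM and CHST10, which makes the HNK-1 epitope, between 46.1 and 56.8 CPM, neither called. CHST1 and CHST5 stayed under the filter, with 59.1% of the exonic bases of CHST5 shared with AC009163.2, and CHST4 was listed for 501Mel only, at 0 counts.

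**Figure D3:**
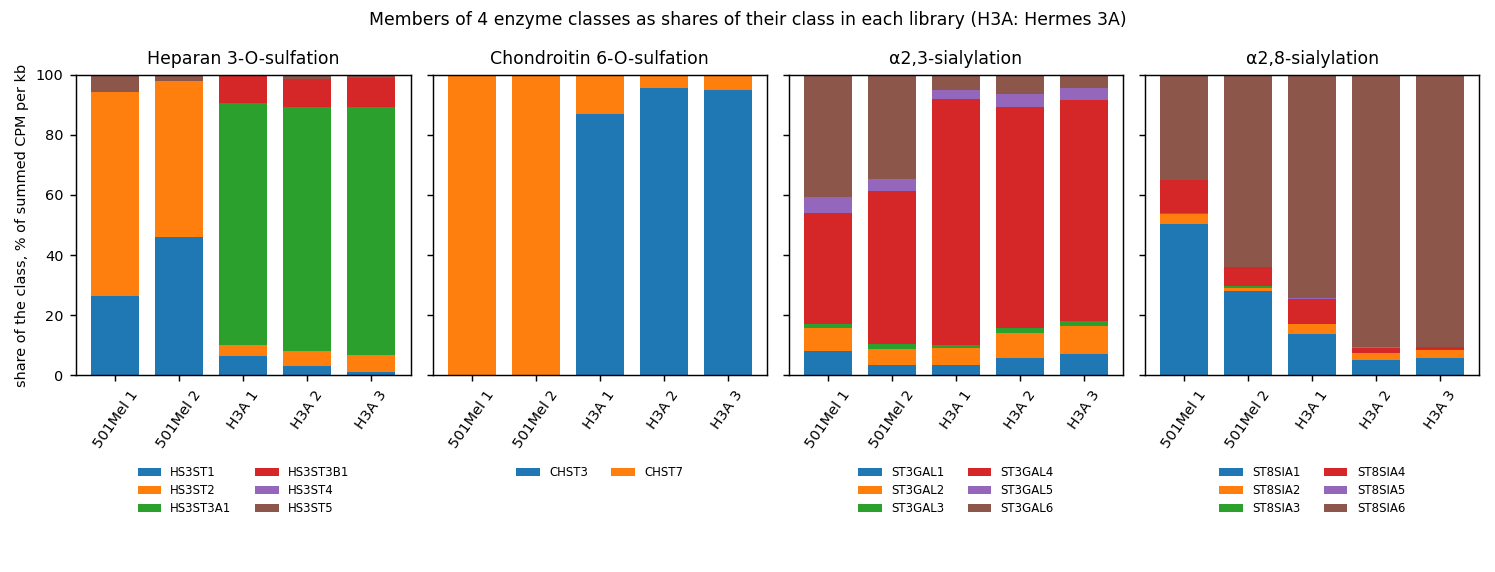
Share of each member in the summed CPM per kb of union exon length of its class, for 4 classes, with 1 stacked bar per library. HS3ST3A1 holds 80.6 to 82.3% of the 3-O class in Hermes 3A and 0 in 501Mel, and ST3GAL6 holds 34.7 and 40.7% of the α2,3 class in 501Mel and 4.37 to 6.52% in Hermes 3A.

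Among the 20 sialyltransferases, 17 were tested, of which 2 were higher and 6 lower in 501Mel, which at 47.1% called is near the 48.2% of all genes. In the ST3GAL family, which adds sialic acid in α2,3 linkage, ST3GAL4 and ST3GAL6 differed between the lines in opposite directions. ST3GAL6, which sialylates type II lactosamine ends and takes part in selectin ligands, stood at 154 and 178 CPM in 501Mel and at 38.3, 41.6 and 30.1 CPM in Hermes 3A. It was higher in every 501Mel library, by 4.52-fold (log2 fold change 2.18 ± 0.17, edgeR adjusted p = 0.00014). ST3GAL4, which acts on similar ends, stood at 98.8 and 185 CPM in 501Mel and at 444, 333 and 360 CPM in Hermes 3A. Hermes 3A was above in every library (log2 fold change -1.42 ± 0.29, edgeR adjusted p = 0.0061). ST3GAL6 therefore made up 37.7% of the class per kb in 501Mel and 5.30% in Hermes 3A, and ST3GAL4 43.8% and 76.2%. In 501Mel their order already differed between replicates, with ST3GAL6 and ST3GAL4 at 40.7% and 36.8% in replicate 1 and at 34.7% and 50.8% in replicate 2. With the median transcript length ST3GAL6 held 47.7% in 501Mel and 8.81% in Hermes 3A, and ST3GAL4 22.9% and 51.8%. With this length ST3GAL6 was ahead in both 501Mel libraries, and ST3GAL4 stayed ahead in Hermes 3A.

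ST3GAL2, which acts on gangliosides and O-glycans, stood at 44.7 and 43.3 CPM in 501Mel and at 64.0, 82.1 and 101 CPM in Hermes 3A. The lines did not overlap (log2 fold change -0.90 ± 0.20, edgeR adjusted p = 0.0098). ST3GAL5, the GM3 synthase, stood at 52.0 and 53.9 CPM in 501Mel and at 61.9, 71.3 and 70.7 CPM in Hermes 3A, where all libraries were above, and was not called (log2 fold change -0.36 ± 0.14, edgeR adjusted p = 0.065; without Hermes 3A replicate 1, -0.44 and 0.023, and 0.048 with at least 10 counts required in every library of a line). ST3GAL1, an O-glycan enzyme, overlapped between the lines (25.2 to 42.2 CPM in 501Mel, 38.8 to 69.4 CPM in Hermes 3A) and was called only without Hermes 3A replicate 1 (log2 fold change -0.88, edgeR adjusted p = 0.037) or without the filter (0.044). ST3GAL3 stood at 18.1 and 25.3 CPM in 501Mel and 29.3 to 32.3 CPM in Hermes 3A and was not called (edgeR adjusted p = 0.073), except without 501Mel replicate 2 (0.035).

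ST6GAL1, the main α2,6-sialyltransferase of N-glycans, stood at 44.6 and 8.19 CPM in 501Mel and at 58.9, 78.0 and 100 CPM in Hermes 3A. All Hermes 3A libraries were above but the 501Mel replicates were 5.44-fold apart, and the gene was not called (log2 fold change -1.58 ± 0.63, edgeR adjusted p = 0.074). Without 501Mel replicate 1 the log2 fold change was -3.27 (edgeR adjusted p = 0.0016), and the gene was also called by DESeq2 (adjusted p = 0.017). ST6GAL2, its paralog, stayed at or below 0.337 CPM in every library.

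The ST6GALNAC family puts sialic acid on N-acetylgalactosamine of O-glycans and gangliosides. ST6GALNAC1, which makes the tumour-associated sialyl-Tn antigen, stood at 0.383 and 0.470 CPM in 501Mel, from 17 and 18 counts, and had 0, 1 and 1 counts in Hermes 3A. Both 501Mel libraries were above, at a low level, with a ratio of summed counts of 23.3 (95% exact interval 5.99 to 200, counting error only; edgeR adjusted p = 0.0040). ST6GALNAC2, an O-glycan enzyme, stood at 31.3 and 45.7 CPM in 501Mel and at 82.7, 146 and 142 CPM in Hermes 3A. Hermes 3A was above throughout (log2 fold change -1.68 ± 0.30, edgeR adjusted p = 0.0035). ST6GALNAC6, which makes α-series gangliosides and disialyl structures, stood at 16.0 and 15.9 CPM in 501Mel and at 47.7, 55.9 and 63.2 CPM in Hermes 3A. Its lines were also apart (log2 fold change -1.80 ± 0.18, edgeR adjusted p = 0.00035). By GENCODE 29, 38.5% of the exonic bases of ST6GALNAC2 lie in AC015802.6 and 18.7% opposite AC015802.1, and 47.0% of those of ST6GALNAC6 lie in AL157935.2, so that reads of these genes cannot all be assigned with certainty.

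ST6GALNAC4 and ST6GALNAC3 were not called. ST6GALNAC4, whose gene lies 2.5 kb from ST6GALNAC6, stood at 12.9 and 7.75 CPM in 501Mel and at 10.5, 3.71 and 3.00 CPM in Hermes 3A. Hermes 3A replicate 1 was within the range of 501Mel, and without it the gene was called (log2 fold change 1.60, edgeR adjusted p = 0.011, against 0.85 and 0.24 with it). ST6GALNAC3, a ganglioside and O-glycan enzyme, overlapped at 64.2 and 76.5 CPM in 501Mel and 37.7 to 80.0 CPM in Hermes 3A. ST6GALNAC5, which adds sialic acid to GM1b, stayed under the filter in the main test with 32 and 9 counts in 501Mel and 1, 2 and 1 counts in Hermes 3A. It was called in edgeR without the filter (log2 fold change 3.58, adjusted p = 0.0032) and by DESeq2 (adjusted p = 0.0085).

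The ST8SIA enzymes add α2,8-linked sialic acid to gangliosides and to polysialic acid. ST8SIA6, which acts on O-glycans, stood at 1.60 and 1.88 CPM in 501Mel and at 6.96, 21.9 and 23.7 CPM in Hermes 3A. Hermes 3A replicate 1 was lower than the other 2 of its line but still above 501Mel (log2 fold change -3.33 ± 0.57, edgeR adjusted p = 0.0031; without that replicate, -3.73 and 0.00019). ST8SIA2, a polysialyltransferase of neural tissue, stood at 0.360 and 0.0783 CPM in 501Mel and at 0.665, 1.23 and 1.48 CPM in Hermes 3A. Its lines did not overlap and it was called (log2 fold change -2.31 ± 0.72, edgeR adjusted p = 0.032), but not without 501Mel replicate 2 (log2 fold change -1.65, adjusted p = 0.13) or without Hermes 3A replicate 2 (-2.29, 0.060) or 3 (-2.11, 0.071). Without 501Mel replicate 1 the log2 fold change of ST8SIA2 was -3.79 (edgeR adjusted p = 0.025). ST8SIA1, the GD3 synthase, stood at 12.3 and 4.41 CPM in 501Mel and at 6.91, 6.77 and 8.03 CPM in Hermes 3A. Hermes 3A lay between the 501Mel replicates and no difference was called (log2 fold change 0.21 ± 0.43, edgeR adjusted p = 0.71). ST8SIA4, the other polysialyltransferase, overlapped at 0.548 and 1.42 CPM in 501Mel and 0.911 to 2.30 CPM in Hermes 3A, and ST8SIA3 and ST8SIA5 had at most 2 and 7 counts in a library.

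Within a line, levels of different genes were compared as CPM per kb of union exon length. The libraries had duplex-specific nuclease normalisation, which lowers abundant transcripts. How far it changed these levels and the class shares given above was not tested. In 501Mel, ST3GAL4 (22.1 and 41.5), HS2ST1 (27.5 and 33.1) and ST3GAL6 (24.5 and 28.3 CPM per kb) were highest and overlapped each other, followed by NDST1 at 18.8 CPM per kb. In Hermes 3A, ST3GAL4 led at 84.9 ± 13.0 CPM per kb (SD, n = 3), above ST6GALNAC2 at 39.9 ± 11.4 and NDST1 at 34.1 ± 5.54, which overlapped, with CHST3 next at 13.9 ± 1.30. HS2ST1, CHST11, CHST10, CHST14 and ST6GALNAC6 followed between 10.5 and 12.0 CPM per kb and were not separated clearly by their spread. This order depends on the length used. With the median transcript length NDST1 led in both lines, at 564 CPM per kb against 296 for ST3GAL4 in Hermes 3A and at 311 against 227 for ST3GAL6 in 501Mel, and CHST3 ranked 18 in Hermes 3A. For NDST1 this length is 576 bases, while its longest transcript has 8030. With the longest transcript ST3GAL4 led in both lines. It stood at 193 CPM per kb against 57.0 for ST6GALNAC2 and 40.5 for NDST1 in Hermes 3A. In 501Mel it stood at 72.2 against 46.5 for ST3GAL6, 33.4 for HS2ST1 and 22.3 for NDST1. The lower 501Mel library of ST3GAL4 (50.2) was close to the higher one of ST3GAL6 (49.9). CHST3 ranked 7 in Hermes 3A with the longest transcript. Of the 10 highest members, 6 in Hermes 3A and 8 in 501Mel were the same with the union of exons and the median transcript length.

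The spread between the 501Mel replicates was wide for some members. Of the 34 tested members with counts in both 501Mel libraries, 4 (HS6ST2, ST6GAL1, CHST2 and ST8SIA2) were at least 4-fold apart, which is 11.8%, against 3.20% of 17552 genes. All 4 were higher in replicate 1, by 14.4-, 5.44-, 5.39- and 4.60-fold. The fibroblast markers COL3A1 (14.9-fold), COL1A1 (8.65-fold), LUM (3.52-fold) and PDGFRA (2.66-fold) were also higher in 501Mel replicate 1. So were the glypicans GPC3 (19.9-fold), GPC4 (16.9-fold), GPC1 (4.37-fold) and GPC2 (1.34-fold), whereas GPC5 was higher in replicate 2 (2.35-fold). GPC6 had 2 and 0 counts. Other pathway genes higher in replicate 1 included CSGALNACT1 (8.65-fold), SDC2 (7.40-fold), CSPG4 (6.53-fold) and EXTL1 (5.02-fold), whereas CASD1 was higher in replicate 2 (3.33-fold). Among the fibroblast markers, DCN (7 and 4 counts) and COL1A2 (3 and 4 counts in 501Mel replicates 1 and 2) had too few counts to give a direction. They were near absent in these libraries, where COL1A1 had 281 and 28 counts and COL3A1 52 and 3. The part of these genes' source in the members' gap was not tested. In Hermes 3A, HS3ST1 (8.34-fold) and HS6ST2 (4.20-fold) were at least 4-fold apart between the highest and lowest of the 3 libraries, 2 of 34 members with counts in all 3 (5.88%, against 6.97% of 17426 genes). In a bulk library fewer cells of a type and less RNA per cell cannot be told apart.

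**Figure D4:**
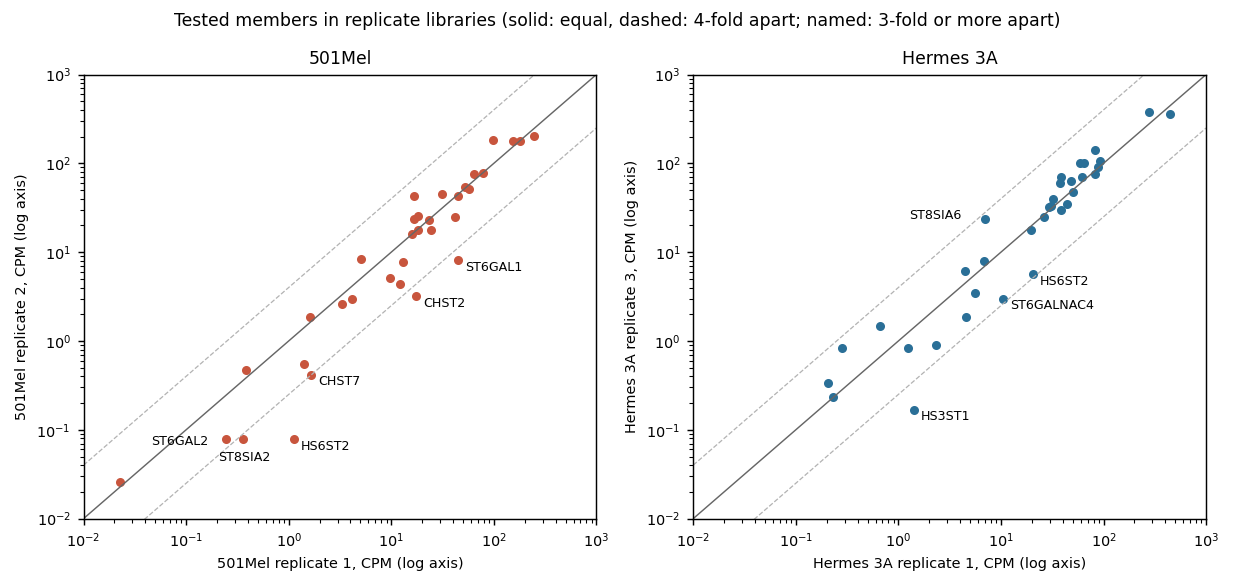
CPM of the tested members in 501Mel replicate 1 against 2 (left) and in Hermes 3A replicate 1 against 3 (right), on log axes, for members with counts in both libraries of a panel. HS6ST2, ST6GAL1, CHST2 and ST8SIA2 lie beyond the dashed line for 4-fold in 501Mel, all below the line of equality, with HS3ST1 farthest out in Hermes 3A.

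The other genes of these pathways were taken from 7 lists with 74 genes, of which 68 were tested, 19 were called higher and 26 lower in 501Mel, together 66.2%, against 24.2% higher, 24.0% lower and 48.2% in either direction among all genes, the shares against which each list's count below is to be read. Genes that stayed under the filter level in 1 line had to differ, among them SULF1, SULF2, GPC6, SRGN and BGN. Of the 6 genes that build the linkage to the core protein, 3 were lower and 0 higher, with XYLT2, a xylosyltransferase that starts the chain, at 17.9 and 21.2 CPM in 501Mel and 35.0 to 56.8 CPM in Hermes 3A (log2 fold change -1.12 ± 0.26, edgeR adjusted p = 0.010). All 9 tested genes of heparan sulfate chain synthesis and editing were called, 3 higher and 6 lower (48.2% of all genes were called). SULF1 and SULF2 were under the filter level in both 501Mel libraries, so they entered the test only through Hermes 3A and had to be lower in 501Mel. SULF2, an extracellular sulfatase that removes 6-O-sulfate from heparan sulfate, stood at 0.135 and 0.209 CPM in 501Mel and at 9.90, 36.8 and 43.9 CPM in Hermes 3A (log2 fold change -7.44 ± 0.86, edgeR adjusted p = 0.00060). EXTL1, an exostosin-like glycosyltransferase, stood at 19.5 and 3.89 CPM in 501Mel and at 0.358 to 1.96 CPM in Hermes 3A (log2 fold change 3.39 ± 0.82, edgeR adjusted p = 0.013), with both 501Mel libraries above in spite of their own gap. Without 501Mel replicate 1 EXTL1 was no longer called (1.8, edgeR adjusted p = 0.13), nor was XYLT2 (-1.01, 0.065), and without replicate 2 EXTL1 stood at 4.12 (0.0059), while without Hermes 3A replicate 3 it stood at 4.0 (0.017).

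Of the 9 chondroitin and dermatan chain genes, 3 were higher and 3 lower (66.7% called, against 48.2% of all genes). CSGALNACT1, which starts the chondroitin chain, stood at 14.9 and 1.72 CPM in 501Mel and at 0.371 to 0.506 CPM in Hermes 3A (log2 fold change 4.20 ± 0.83, edgeR adjusted p = 0.0055; without 501Mel replicate 1, 1.93 and 0.036, and without 501Mel replicate 2, 5.03 and 0.00037). CHPF, a chondroitin polymerizing factor, stood at 135 and 118 CPM in 501Mel and at 467, 548 and 663 CPM in Hermes 3A (log2 fold change -2.15 ± 0.20, edgeR adjusted p = 0.00027). For sulfate donor supply, SLC35B3, a transporter of the donor PAPS into the Golgi, was the only 1 of 6 called (log2 fold change -0.57 ± 0.18, edgeR adjusted p = 0.030), a call lost without 501Mel replicate 1 (0.16) or Hermes 3A replicate 2 (0.087) or 3 (0.066), while the PAPS synthases PAPSS1 and PAPSS2 were not called (edgeR adjusted p = 0.090 and 0.15).

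Of the 20 proteoglycan core proteins tested, 7 were higher and 8 lower in 501Mel (75.0% called, against 48.2% of all genes). The called genes include GPC6 and SRGN, under the filter level in 501Mel, and BGN, under it in Hermes 3A. CD44, a hyaluronan receptor that can carry glycosaminoglycan chains, stood at 0.360 and 0.157 CPM in 501Mel and at 836, 1130 and 1131 CPM in Hermes 3A (log2 fold change -11.92 ± 0.42, edgeR adjusted p = 9.09e-06; without 501Mel replicate 1, -12.66 and 7.6e-05). GPC5, a glypican with heparan sulfate chains, stood at 3.60 and 8.45 CPM in 501Mel and at 0.217 to 0.358 CPM in Hermes 3A (log2 fold change 4.30 ± 0.51, edgeR adjusted p = 0.00072; without 501Mel replicate 2, 3.54 and 0.0037). Among 10 tested genes of sialic acid supply and removal, 2 were higher and 4 lower (60.0% called), with NANP, the sialic acid 9-phosphatase, at a log2 fold change of 0.99 ± 0.18 (edgeR adjusted p = 0.0039) and SLC17A5, the lysosomal sialic acid exporter, at -2.26 ± 0.14 (5.31e-05). Among the 8 glycolipid and O-glycan acceptor genes, 4 were higher and 1 lower (62.5% called, again against 48.2%). GCNT1, which builds core 2 O-glycans, stood at 2.84 and 1.38 CPM in 501Mel and at 0.153 to 0.241 CPM in Hermes 3A (log2 fold change 3.31 ± 0.51, edgeR adjusted p = 0.0020), and C1GALT1C1, the chaperone of core 1 synthase, was lower (log2 fold change -0.54 ± 0.17, edgeR adjusted p = 0.034), a call lost without either 501Mel replicate (0.11) or without Hermes 3A replicate 2 (0.091). GCNT1 without 501Mel replicate 1 stood at 2.70 (edgeR adjusted p = 0.018).

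**Figure D5:**
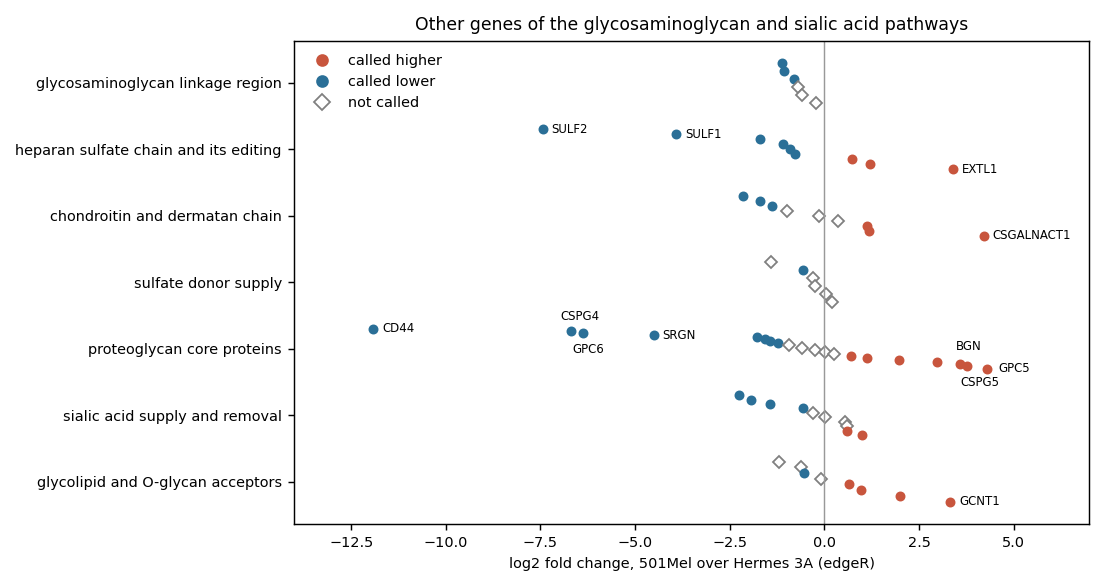
Log2 fold change of 501Mel over Hermes 3A for the 68 tested genes of the 7 pathway lists, with filled points for genes called by edgeR and open diamonds for genes not called. Genes beyond 3 on either side are named, from CD44 at -11.92 to GPC5 at 4.30.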

How the data were processed

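RNA was measured in 5 libraries of shBPTF cells, 2 of 501Mel and 3 of Hermes 3A, prepared from ribosomal RNA-depleted total RNA with duplex-specific nuclease normalisation, which lowers abundant transcripts. The authors deposited raw counts per Ensembl gene, as whole numbers without normalization. The submitters' processing notes list hg19, CASAVA 1.8, TopHat 1.4.1 and Bowtie 0.12.7 with no role. The counting program, annotation and strand setting were not given in the sources used here. The gene lists differ between the lines (37259 genes for 501Mel, 34033 for Hermes 3A), so the counting may have used different annotations, and only the 31029 genes in common were tested.

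The symbols, coordinates and exon lengths came from GENCODE 29 on GRCh38, matched by Ensembl identifier (94.5% of the common genes), and promoter windows from RefSeq. Counts were filtered with filterByExpr, scaled by TMM and fitted with edgeR 4.0.16 (glmQLFit, glmQLFTest, R 4.3.3) on the cell line alone, with Benjamini-Hochberg adjustment over all genes tested. Standard errors are the log2 fold change divided by the square root of F. A gene with 0 counts in 1 line is given as a bound at 3 counts over that line's libraries, and one with 1 to 3 counts as a ratio of summed counts with an exact 95% interval. The script was tested on simulated data. Alternatives were DESeq2 1.42.0, other scalings and filters, a replicate block, and leaving out each library.

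Every member is accounted for. Values in every library are given for called members, and from each pathway list the called gene with the largest absolute log2 fold change in each direction is named, together with the PAPS synthases, chosen after their values were seen. The members and lists were chosen with earlier results of these data known. No label says whether replicates were separate cultures, so the p-values measure the spread between these libraries, which may be technical. Replicates differed far beyond counting noise (chi-square per gene of at least 19.4), so none was counted as a duplicate.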

Additional observations from a re-analysis of the deposited data

Results flagged for a closer look

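NDST4, an N-deacetylase/N-sulfotransferase of heparan sulfate known from brain, was listed for the 501Mel libraries only and therefore entered no comparison. It had 16 and 21 counts there, a mean of 0.454 CPM, which exceeds the 0.0362 CPM that a count of 0 over both libraries allows. With unlisted genes set to 0 in Hermes 3A, edgeR gave an adjusted p of 0.0042, but whether the gene was counted in Hermes 3A is not known.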

How the results depend on the processing

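Direction and call held for 398 of the 431 values of tested members over 12 other settings, while 14 gained a call, 14 lost one and 5 reversed, all of these 5 among members not called: HS6ST1 with library totals only (log2 fold change 0.028), CHST6 (-0.066) and ST8SIA1 (-0.72) without 501Mel replicate 1, ST6GALNAC3 (-0.0081) without Hermes 3A replicate 1 and CHST11 (-0.084) without Hermes 3A replicate 2. Their values with 1 library left out reached 0.86 for CHST6, 0.75 for ST8SIA1, 0.49 for ST6GALNAC3 and 0.13 for CHST11. With 1 library left out in turn, 2864 (without 501Mel replicate 1) to 4595 genes were called higher in 501Mel, against 4354 with all libraries, 7 to 9 members were higher and 11 to 16 lower, and 13 to 17 genes of the pathway lists were higher and 21 to 26 lower. When a 501Mel library was left out, the remaining one was assumed to vary like Hermes 3A. At a log2 fold change of at least 1, 9 members were lower in place of 14. With the median transcript length, 6 of the 10 highest members in Hermes 3A stayed among the 10 highest. The median log2 fold change of all genes was 0.02, and 0.14 with DESeq2. DESeq2 called 8 members higher and 15 lower.

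Replicate numbers are shared between the lines, but no label ties them to a day or batch, and the deviations of same-numbered libraries correlated at 0.122 over the 2 pairs. With a replicate block 7 members were called higher and 15 lower (3627 and 3834 genes in all): ST6GAL1, CHST2 and CHST7 gained a call, and NDST2 and ST8SIA2 lost theirs. At this depth a count of 0 allows up to 0.0362 CPM over the 501Mel libraries and 0.0272 CPM over those of Hermes 3A.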
